A study of Mus musculus with 9 samples.

Results

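The genes described here are the nuclear genes for subunits of oxidative phosphorylation, measured in hair follicle stem cells of mice at 3 ages. They were taken by gene symbol from the deposited expression table: symbols that begin with Nduf followed by a, b, c, s or v and a digit (complex I), Sdha to Sdhd (complex II), Uqcr (complex III), Cox4 to Cox8 followed by a letter (complex IV) and Atp5 (complex V). The rule found 86 of 37980 rows, of which 37 belong to complex I, 4 to complex II, 8 to complex III, 19 to complex IV and 18 to complex V. It used names and no measured value, and 1 row with a pseudogene symbol was left out.

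The cells came from back and belly skin of male C57BL/6J mice aged 3, 19 or 24 months, with no other treatment or allele named, and were sorted for high CD49f (integrin alpha 6) and for surface CD34, which mark the bulge of the follicle. Each age has 3 RNA libraries, called replicates 1 to 3 at the younger ages and 2 to 4 at 24 months in the labels. Whether replicates were separate animals is not stated, so the p-values describe spread among libraries that may be only technical. The labels' running numbers set the 3-month libraries apart from the older ones and some of their barcodes return at 19 months, so a difference in pool between 3 months and the older ages cannot be told apart from age.

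Oxidative phosphorylation passes electrons from NADH (through complex I) and succinate (through complex II) by way of complexes III and IV to oxygen, and the proton gradient that complexes I, III and IV build drives ATP synthesis by complex V. Most subunits are encoded in the nucleus and imported into the mitochondrion, while a small core of complexes I, III, IV and V is encoded by mitochondrial DNA. Bulge stem cells rest for long periods and are known for a strongly glycolytic metabolism, and loss of mitochondrial gene expression from mouse epidermis is known to disturb hair follicle growth.

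Values are FPKM, that is, mapped fragments scaled by transcript length and by library total. The depth of each library is unknown. Changes are differences of log2(FPKM + 1), which understates the change of low genes, and were tested with limma in 1 model of all 9 libraries over 11509 protein-coding genes. A gene was called where its Benjamini-Hochberg adjusted p over all genes was below 0.05. Of the 86 rows, 80 entered the test (37 of complex I, 4 of II, 8 of III, 14 of IV and 17 of V). Median FPKM over the tested genes lay between 10.01 and 11.3 in the 9 libraries. Cd34 (403 to 632 FPKM), Itga6 (72.7 to 117 FPKM) and Krt14 (3235 to 6619 FPKM), the genes behind the sort and a basal keratin, were high in every library. Krt15, a bulge keratin, was listed at 0 in all 9 libraries. Krt5, a basal keratin like Krt14, stood at 3241 to 7576 FPKM at 3 months and 2160 to 6145 FPKM at 24 months. It was listed at 0 in every 19-month library and was left out of the test. Because these are bulk samples, fewer cells of a type and less RNA per cell cannot be told apart.

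The subunit genes were among the more abundant genes of these cells. Of the 80 tested rows, 77 stood above 10 FPKM in every library, and the median of their mean FPKM was 213, against 10.9 over all genes tested. FPKM is scaled by length, but libraries also differed along protein length, so levels of different genes are only roughly comparable. The median level over a complex was 165 FPKM in complex I, 172 in complex II, 358 in complex III, 207 in complex IV and 356 in complex V. Within a complex the levels were far from equal.

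The most abundant subunit was Cox4i1, the ubiquitous form of a regulatory subunit of cytochrome c oxidase, at 1616, 1560 and 1320 FPKM at 3 months, 1629, 1613 and 1633 FPKM at 19 months and 1782, 1471 and 1769 FPKM at 24 months. Uqcr11, a small subunit of complex III, was highest in its complex, at 914, 691 and 607 FPKM at 3 months, 853, 776 and 923 FPKM at 19 months and 827, 570 and 717 FPKM at 24 months. Both overlapped between the ages. Ndufa6, an accessory subunit of complex I, stood at 607, 456 and 365 FPKM at 3 months, 534, 506 and 549 FPKM at 19 months and 712, 480 and 682 FPKM at 24 months. Atp5e, the epsilon subunit of the central stalk of complex V, stood at 595, 459 and 393 FPKM at 3 months, 511, 539 and 695 FPKM at 19 months and 569, 401 and 560.5 FPKM at 24 months. For these genes, the libraries of 1 age spread as widely as the ages did. Sdhb, the iron-sulfur subunit of complex II, stood at 183, 200 and 181 FPKM at 3 months, 234, 245 and 251 FPKM at 19 months and 238, 191 and 209 FPKM at 24 months. Its 19-month libraries were all above its 3-month libraries, with a log2 change of 0.37 ± 0.13 (SE) that did not pass the test (limma adjusted p = 0.157), and the 24-month libraries overlapped both. The lowest tested rows of the 5 complexes, by mean FPKM, were Ndufs1 (37.5), Sdhd (130), Uqcrfs1 (32.2), Cox7a1 (1.76) and Atp5s (10.4).

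Across the 3 ages, most subunits did not pass the test, and 3 were called lower. These were Uqcrfs1 of complex III, Cox5a of complex IV and Atp5d of complex V, at 24 against 3 months. Their mean FPKM fell to 49.99%, 54.4% and 57.6% of that at 3 months. In that comparison 0 subunits were called higher, while 61 of 80 had a change above 0. The genes called are 3 of 80 tested subunits, or 3.75%. Of all 11509 genes, 3.84% were called in that comparison (2.34% as lower and 1.5% as higher), so the subunits were called about as often as genes at large. An unadjusted p below 0.05 was found for 12 of 80 subunits (15%) and for 21.6% of all genes. In complexes I and II, 0 of 37 and 0 of 4 were called in that comparison. The same 3 genes were not called when rows of all gene types were tested together (adjusted p from 0.0507 to 0.0925), a fit that calls 29 genes in all.

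Uqcrfs1, the Rieske iron-sulfur protein that passes electrons from ubiquinol to cytochrome c1 in complex III, showed the largest fall. It stood at 45.9, 44.8 and 38.3 FPKM at 3 months, 34.9, 35.1 and 26.0 FPKM at 19 months and 22.0, 22.0 and 20.6 FPKM at 24 months. The ages did not overlap, each later age being lower than the one before. The log2 change at 24 against 3 months was -0.96 ± 0.15 (limma adjusted p = 0.00364). Neither step alone passed the test, at -0.42 ± 0.15 from 3 to 19 months (limma adjusted p = 0.161) and -0.54 ± 0.15 from 19 to 24 months (limma adjusted p = 0.102). The call at 24 against 3 months held in 9 of 9 fits that each left out 1 library. Leaving out a 19-month library does not alter this log2 change itself, only its error.

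Cox5a, a nuclear subunit of cytochrome c oxidase that sits on its matrix side, was lowest at 24 months. It stood at 55.9, 46.5 and 45.7 FPKM at 3 months, 40.2, 46.2 and 49.7 FPKM at 19 months and 34.2, 26.3 and 20.1 FPKM at 24 months. The 3- and 19-month libraries overlapped and all 24-month libraries lay below both. The log2 change was -0.88 ± 0.17 at 24 against 3 months (limma adjusted p = 0.0125) and -0.76 ± 0.17 at 24 against 19 months, just short of the threshold (limma adjusted p = 0.0507). Without replicate 4 of 24 months, its lowest library, the adjusted p against 3 months was 0.0605. The only annotated gene whose exons overlap those of Cox5a, on the opposite strand, is Gm26631, which the table does not pair with a row.

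Atp5d, the delta subunit of the central stalk of ATP synthase, stood at 283, 260 and 220 FPKM at 3 months, 219, 217 and 199 FPKM at 19 months and 190, 125 and 125 FPKM at 24 months. Its ages did not overlap either, although replicate 3 of 3 months and replicate 1 of 19 months were almost level. The log2 change at 24 against 3 months was -0.81 ± 0.16 (limma adjusted p = 0.0140), and the adjusted p was 0.0787 without replicate 4 of 24 months and 0.0620 without replicate 2 of 3 months. Its exons overlap those of Cbarp on the opposite strand, and no source used here states strand use, so reads of the pair cannot be told apart. Cbarp, listed in the table as Dos, had 4.32 to 8.40 FPKM and a log2 change of 0.37 at 24 against 3 months (limma adjusted p = 0.326).

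The falls can also be stated relative to the rest of each complex in the same library. The 3 genes were chosen for their falls in these same libraries, so the ratios restate the falls and are no separate support. Uqcrfs1 stood at 11.6% ± 0.474 (SD, n = 3) of the median FPKM of the other tested rows of complex III at 3 months, 7.75% ± 2.15 at 19 months and 5.31% ± 1.14 at 24 months. Atp5d went from 79.6% ± 1.12 of the median of complex V at 3 months to 58.3% ± 7.26 at 19 months and 40.1% ± 9.41 at 24 months. Cox5a went from 27.0% ± 4.92 of the median of complex IV at 3 months to 20.5% ± 1.72 at 19 months and 12.3% ± 4.12 at 24 months. These ratios leave out any scaling between libraries, and for each of the 3 genes every 24-month library lay below every 3-month library.

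**Figure D1:**
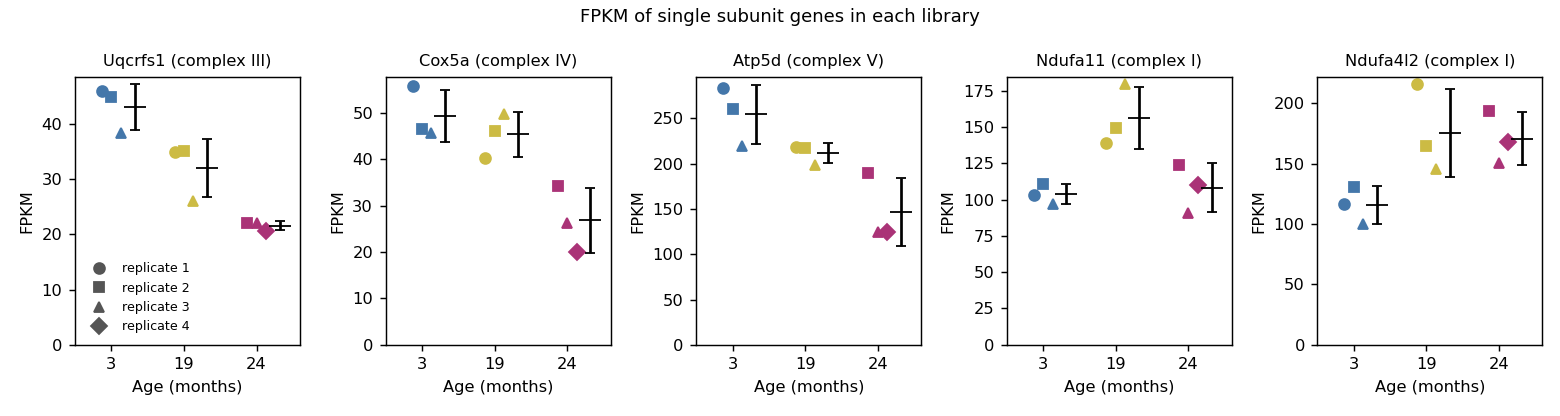
FPKM (vertical axes, linear, from 0) of 5 subunit genes in each library, by age in months (horizontal axes), with the mean and SD of the 3 libraries as a bar beside the points. Uqcrfs1 runs from 45.9 FPKM at 3 months down to 20.6 FPKM at 24 months with no overlap between ages, Cox5a and Atp5d are lowest at 24 months, Ndufa11 is highest at 19 months, and Ndufa4l2 is lowest at 3 months.

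The 3 genes that fell are shown by the bases just before their start sites, so that they can be set beside the promoters of other subunits. RefSeq promoters (build GRCm38.p6, 250 bases before to 50 after each start) matched 67 of the 86 rows. The sequences below are the 120 bases upstream of the start, in lower case throughout because they hold none of the motifs searched. For Atp5d, which has more than 1 annotated start, the stretch before the most upstream start is given. Uqcrfs1 is at chr13:30545317-30545436 on the minus strand, Cox5a at chr9:57521112-57521231 on the plus strand and Atp5d at chr10:80142155-80142274 on the plus strand.
Uqcrfs1: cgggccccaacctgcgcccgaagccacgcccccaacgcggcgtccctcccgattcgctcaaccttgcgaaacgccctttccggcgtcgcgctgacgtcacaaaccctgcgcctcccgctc
Cox5a: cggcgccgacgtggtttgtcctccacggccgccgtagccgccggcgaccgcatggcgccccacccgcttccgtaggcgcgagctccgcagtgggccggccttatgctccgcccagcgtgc
Atp5d: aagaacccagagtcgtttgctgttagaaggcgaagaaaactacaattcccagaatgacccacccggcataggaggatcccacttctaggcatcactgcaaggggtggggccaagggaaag

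The motifs searched, on both strands of the whole window, were GCGCANGCG for NRF1 and CCGGAAG for GABPA, transcription factors known for binding promoters of respiratory chain genes, and AAGATGGC for YY1. The NRF1 letters were found in 20 of 67 matched subunits (29.9%), against 15.8% of 9137 tested genes with a promoter and 7.03% of 27025 RefSeq genes. A form longer by 1 base at its end, which had been counted first, was found in 17 of 67 (25.4%), against 12% and 5.19%. The YY1 letters were found in 10 of 67 (14.9%), against 5.45% and 3.19%, and the GABPA letters in 16 of 67 (23.9%), against 21.0% and 9.93%. By complex, the NRF1 letters were in 8 of 32 tested genes of complex I, 2 of 3 of complex II, 2 of 5 of complex III, 1 of 11 of complex IV and 7 of 14 of complex V. Uqcrfs1, Cox5a and Atp5d held none of the 3 motifs anywhere in their windows, which says only that these letters are not there. Many matched subunits that were not called held none either, among them Uqcr10 of complex III, Cox5b and Cox7c of complex IV, and Atp5b and Atp5g1 of complex V. The NRF1 letters are close to a palindrome, so 1 place can match on both strands, and a gene was counted once however often it matched. The next sequences, shown for contrast, give the motif in capitals in subunits of complexes I, II and IV: the NRF1 letters in Ndufa11 (chr17:56717692-56717721, plus strand), Sdhd (chr9:50603909-50603938, minus strand) and Cox6a1 (chr5:115349101-115349130, minus strand), and the GABPA letters, on the opposite strand, in a second window of Sdhd (chr9:50603877-50603906, minus strand).
Ndufa11, NRF1: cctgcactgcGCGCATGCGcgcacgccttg
Sdhd, NRF1: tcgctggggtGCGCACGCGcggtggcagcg
Cox6a1, NRF1: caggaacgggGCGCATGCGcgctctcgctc
Sdhd, GABPA: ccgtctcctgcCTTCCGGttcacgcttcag

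Ndufa11, a membrane-arm subunit of complex I, was the 4th subunit to pass the F test for a change at any age, after the 3 that fell. It stood at 103, 111 and 96.9 FPKM at 3 months, 139, 149 and 180 FPKM at 19 months and 124, 90.5 and 109.9 FPKM at 24 months. All 19-month libraries lay above all others, and the 3- and 24-month libraries overlapped. The F test gave a limma adjusted p of 0.0453, which rose above 0.05 in most of the alternatives run. It was 0.069 after median centring, 0.0755 after quantile normalisation and 0.216 without replicate 3 of 19 months. Its log2 change was 0.58 ± 0.15 at 19 against 3 months (limma adjusted p = 0.0591) and -0.53 ± 0.15 at 24 against 19 months (limma adjusted p = 0.111). Vmac, which overlaps it on the opposite strand, had 9.31 to 12.8 FPKM. In all, 4 of 80 subunits (5%) passed the F test, against 4.54% of all genes, with limma adjusted p of 0.00586 for Uqcrfs1, 0.0168 for Cox5a and 0.0243 for Atp5d. In the same order these were 0.0734, 0.1305 and 0.154 with all row types. Without replicate 4 of 24 months they were 0.0266, 0.083 and 0.117.

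At 19 against 3 months 0 of 80 subunits were called by limma, where 1.56% of all genes were (0.6% as higher and 0.964% as lower), and 12 of 80 (15%) were below an unadjusted p of 0.05, against 15.7% of all genes. Across the alternatives run, 0 or 1 subunit was called. The largest rise was that of Ndufa4l2, a hypoxia-inducible relative of Ndufa4. It stood at 117, 131 and 99.8 FPKM at 3 months, 216, 164 and 146 FPKM at 19 months and 194, 150 and 168 FPKM at 24 months. Every older library lay above every 3-month library, while the 19- and 24-month libraries overlapped. Its log2 change was 0.58 ± 0.16 at 19 against 3 months (limma adjusted p = 0.0872) and 0.56 ± 0.16 at 24 against 3 months (limma adjusted p = 0.0663). Its exons overlap those of Shmt2, a mitochondrial serine hydroxymethyltransferase, on the opposite strand, which had 33.4 to 48.5 FPKM.

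At 24 against 19 months 0 of 80 subunits were called by limma, where 0.93% of all genes were (0.712% as higher and 0.217% as lower), and 6 of 80 (7.5%) were below an unadjusted p of 0.05, against 12.8% of all genes. Across the alternatives run, between 0 and 2 subunits were called. The largest rise was that of Atp5sl, at 30.1, 25.0 and 23.7 FPKM at 3 months, 35.5, 27.3 and 26.4 FPKM at 19 months and 30.1, 37.6 and 37.5 FPKM at 24 months, with a log2 change of 0.24 (limma adjusted p = 0.581). Atp5sl is no subunit of ATP synthase: it is now known as Dmac2, a factor of complex I assembly. In the same way Cox4nb is now Emc8, of a membrane protein complex of the endoplasmic reticulum, Atp5s is a coupling factor rather than a core subunit, and Ndufa4 is now placed with complex IV. Moving Ndufa4 and leaving out the other 3 rows gave medians at 24 against 3 months of 0.21 for complex I, 0.17 for complex IV and 0.14 for complex V. All other rows, Ndufa4l2 and Cox7a2l among them, stayed in the complex that the symbol rule gave them.

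**Figure D2:**
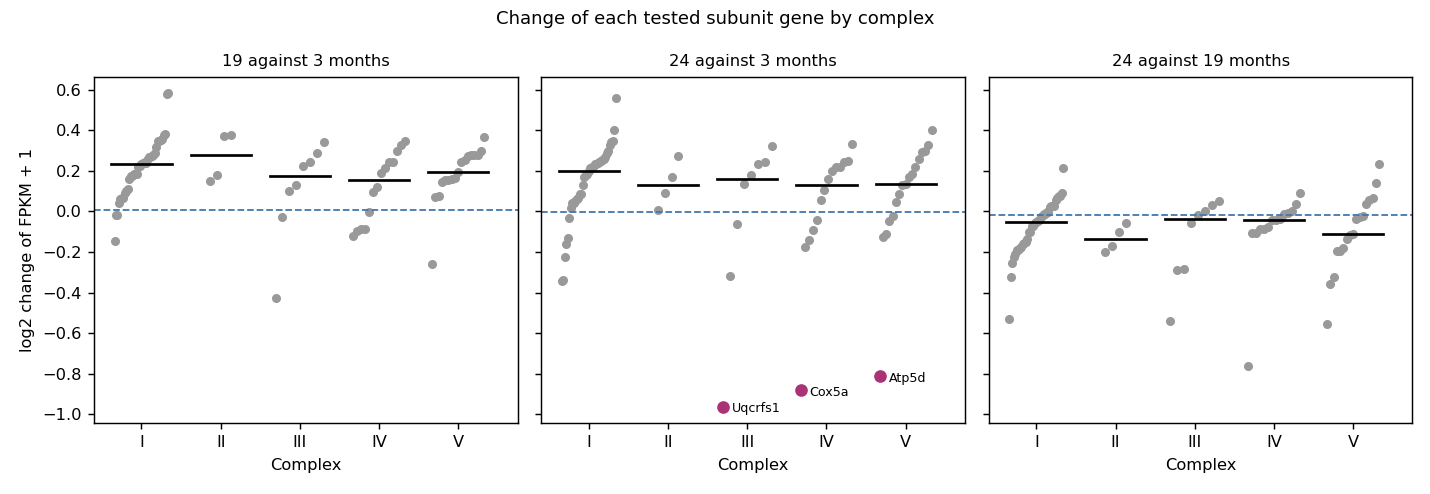
Log2 change of FPKM + 1 (vertical axis) of each of the 80 tested subunit genes, by complex (horizontal axis) in the 3 comparisons of ages. Grey points did not pass the limma threshold and purple points did, black bars are the medians of a complex and the dashed line is the median of all genes tested. The purple points are Uqcrfs1, Cox5a and Atp5d at -0.96, -0.88 and -0.81, and the medians at 19 against 3 months lie between 0.16 and 0.28.

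As a group the subunits had median changes above 0 at both older ages against 3 months, which were close to 0 after quantile normalisation of the libraries. The median log2 change at 19 against 3 months was 0.22 over the 80 subunits, with 69 of 80 above 0, against 0.006 over all genes with 50.8% above 0, and 0.02 over the subunits after quantile normalisation. By complex it was 0.24 for complex I (34 of 37 above 0), 0.28 for complex II (4 of 4), 0.18 for complex III (6 of 8), 0.16 for complex IV (9 of 14) and 0.19 for complex V (16 of 17), and quantile normalisation turned the medians of complexes III and IV to -0.01. At 24 against 3 months the median was 0.17 over the subunits, with 61 of 80 above 0, against -0.0037 over all genes with 49.5% above 0, and 0.02 over the subunits after quantile normalisation, which turned the medians of complexes III, IV and V to -0.0034, -0.03 and -0.06. At 24 against 19 months it was -0.06, with 21 of 80 above 0, against -0.02 over all genes with 46.8% above 0. A difference between complexes was not tested.

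Libraries of 1 age differed in the median over the subunits. Against the mean of all 9 libraries, the median subunit deviated by 0.02, -0.10 and -0.29 in replicates 1, 2 and 3 of 3 months, by 0.02, 0.06 and 0.21 in replicates 1, 2 and 3 of 19 months, and by 0.12, -0.19 and 0.15 in replicates 2, 3 and 4 of 24 months. Replicate 3 of 3 months and replicate 3 of 24 months were the lowest, and the 3- and 24-month libraries overlapped. The 3- and 19-month libraries only just did not, the highest at 3 months being at 0.0222 and the lowest at 19 months at 0.0248. The medians of complex II lay between -0.23 and -0.05 at 3 months and between 0.11 and 0.21 at 19 months, and those of complex V between -0.21 and -0.07 and between 0.0036 and 0.23. Complex I was just separated between these ages (at most 0.0084 and at least 0.0103), complexes III and IV overlapped, and at 24 against 3 months every complex overlapped. The SD between libraries of an age was 0.15 for the median subunit and 0.03 for the median of all genes. Over the fits that each left out 1 library, the median at 19 against 3 months ran from 0.12 (without replicate 3 of 3 months) to 0.28 (without replicate 1 of 3 months), and that of complex IV from 0.02 to 0.32 in the same 2 fits. At 24 against 3 months the median ran from 0.09 (without replicate 2 of 24 months) to 0.27 (without replicate 3 of 24 months), and that of complex IV from -0.03 (without replicate 3 of 3 months) to 0.31 (without replicate 3 of 24 months). At 24 against 19 months the median was -0.13 without replicate 4 of 24 months, -0.11 without replicate 2 and 0.04 without replicate 3.

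At 19 against 3 months the libraries did not overlap for 17 subunits that were higher and 2 that were lower (21.2% and 2.5% of 80), where 11% and 11.6% of all genes did so. At 24 against 3 months they did not overlap for 5 higher and 5 lower subunits, where 10.6% and 12% of all genes did so. At 24 against 19 months the counts were 0 higher and 8 lower, where 7.94% and 10.4% of all genes did so.

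**Figure D3:**
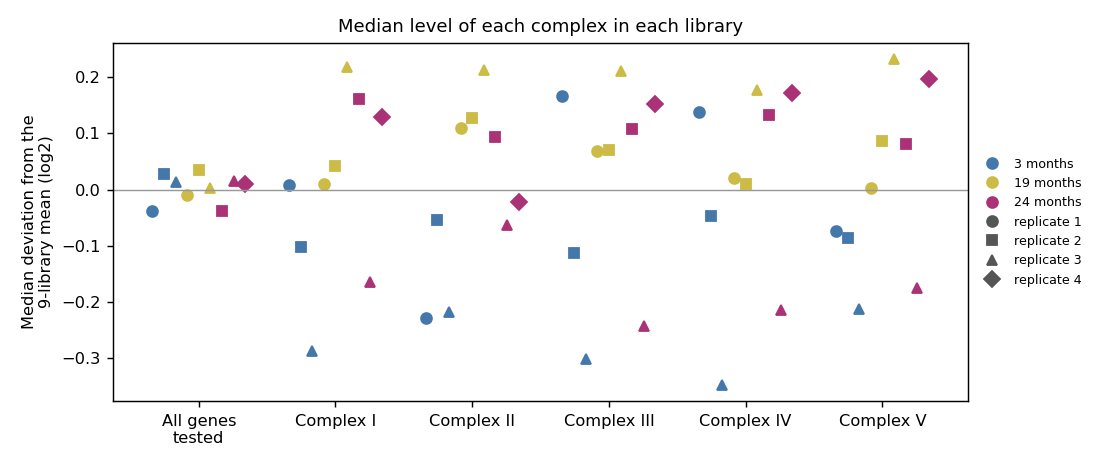
Median deviation of log2(FPKM + 1) from the 9-library mean (vertical axis) over all genes tested and over each complex (horizontal axis), with 1 point for each library coloured by age and shaped by replicate number. All genes tested stay between -0.04 and 0.03, while complex IV runs from -0.35 in replicate 3 of 3 months to 0.18 in replicate 3 of 19 months, and replicate 3 of 24 months is the lowest of its age in every complex.

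Level of expression and protein length were read beside these shifts. The 10% of genes with the highest mean FPKM (at least 78.0, a range chosen after the values were seen) held 67 of the subunits, and its other 1084 genes had medians of 0.21 at 19 against 3 months, 0.18 at 24 against 3 months and -0.04 at 24 against 19 months, close to those of the subunits. The subunits are small, with a median of 142 residues against 454 over all genes, and 58 of 80 have up to 200 residues. All 1606 genes of up to 200 residues had medians of 0.16 and 0.14 at 19 and 24 against 3 months, while genes over 400 residues had -0.06 at both. Among the subunits, the 58 of up to 200 residues had medians of 0.23 and 0.18, the 13 over 200 and up to 400 residues 0.18 and 0.18, and the 9 over 400 residues 0.15 and 0.09. Across the 80 subunits, which share the 9 libraries, Spearman's rho between length and change was -0.09 at 19 and -0.09 at 24 against 3 months (0.01 and 0.0084 after quantile normalisation), and across all 11509 genes it was -0.31 and -0.24.

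Within single libraries the order of the subunits by length differed between libraries of the same age. Across the 80 subunits, which share a library and its fragmentation, Spearman's rho between length and deviation was -0.52, 0.54 and 0.58 in replicates 1, 2 and 3 of 3 months, 0.15, 0.36 and -0.44 in replicates 1, 2 and 3 of 19 months, and -0.45, 0.54 and -0.32 in replicates 2, 3 and 4 of 24 months. Both signs occur at each age. The part of length or abundance in the group shift was not tested.

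**Figure D4:**
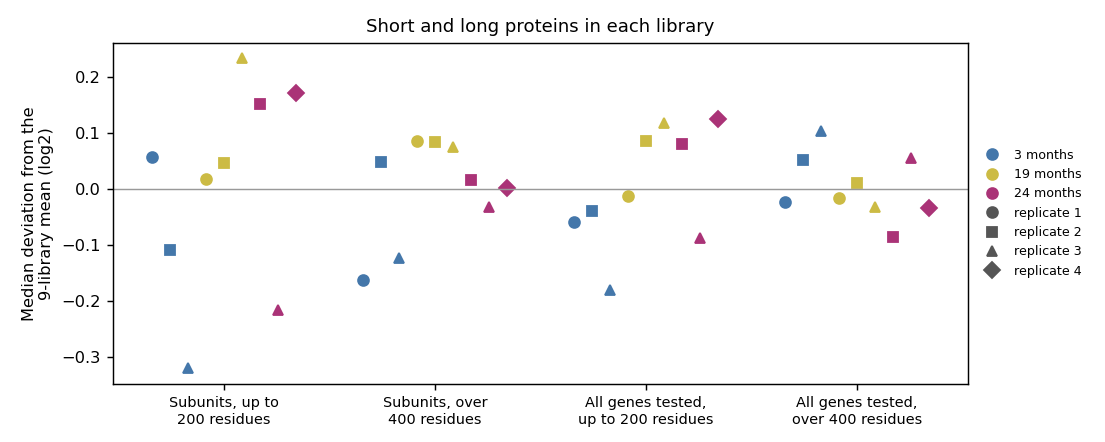
Median deviation of log2(FPKM + 1) from the 9-library mean (vertical axis) for short and long proteins among the subunits and among all genes tested (horizontal axis), with 1 point for each library coloured by age and shaped by replicate number. Short subunits run from -0.32 in replicate 3 of 3 months to 0.23 in replicate 3 of 19 months, and long subunits stay between -0.16 and 0.09.

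Tissue-specific forms of subunits were examined as pairs with their ubiquitous partners. The forms known from striated muscle were listed at or near 0, which need not mean absence, since mt-Co3, mt-Atp6 and Krt15 are listed at 0 in all 9 libraries too. Cox6a2 was listed at 0 in all 9 libraries, Cox8b reached at most 0.315 FPKM, and Cox7a1 made up 0.841% ± 0.136 (SD, n = 3) of the summed FPKM of Cox7a1 and Cox7a2 at 3 months, 0.685% ± 0.275 at 19 months and 0.712% ± 0.496 at 24 months. Cox4i2, a hypoxia-responsive form known from lung, reached at most 0.641 FPKM. Cox7b2 was listed at 0 in all 9 libraries, and Cox8c reached at most 0.422 FPKM. Cox4i2, Cox6a2, Cox7b2, Cox8b and Cox8c were below the limit for testing. Atp5l2, at 2.82 to 6.12 FPKM, is annotated as a pseudogene and was not tested either.

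Cox6b2, a form known from testis, was present beside Cox6b1, at 30.1, 22.4 and 12.7 FPKM at 3 months, 24.5, 26.6 and 27.1 FPKM at 19 months and 22.0, 20.8 and 30.4 FPKM at 24 months. That was 4.45% ± 1.27 of the pair at 3 months, 4.47% ± 0.296 at 19 months and 4.39% ± 0.578 at 24 months, with overlap between all ages. Ndufa4l2 made up 34.0% ± 3.4 of its pair with Ndufa4 at 3 months, 37.9% ± 9.53 at 19 months and 40.2% ± 3.79 at 24 months. The c-ring subunit of ATP synthase is encoded by Atp5g1, Atp5g2 and Atp5g3, whose mature proteins are identical. Atp5g2 gave the largest share at every age, 46.3% ± 3.92 at 3 months, 45.4% ± 3.02 at 19 months and 50.6% ± 1.68 at 24 months, with Atp5g3 at 31.1%, 30.6% and 27.3% and Atp5g1 at 22.6%, 24.0% and 22.1%. Over the 27 tests of shares between ages, the smallest exact two-sided permutation p was 0.1, the smallest that 3 against 3 libraries allow, and all adjusted p were 1.

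The subunits encoded by mitochondrial DNA had higher median changes at 24 months than the nuclear ones, a difference that was not tested. Of 13 such genes, 8 could be tested. Another 4, mt-Atp6, mt-Atp8, mt-Co3 and mt-Nd4l, were listed at 0 in every library, and mt-Co1 at 0 in every 19- and 24-month library. At 24 against 3 months all 8 were above 0, and mt-Co2 and mt-Nd6 were called higher, where 1.5% of all genes were. The median log2 change over the 8 was 0.59 (0.25 after quantile normalisation) against 0.17 for the nuclear subunits. At 24 against 19 months all 8 were again above 0, with a median of 0.66. In that comparison mt-Nd6 was called higher, where 0.712% of all genes were. At 19 against 3 months the median was -0.05, with 3 of 8 above 0.

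mt-Nd6, a membrane subunit of complex I and the one encoded on the light strand, stood at 794, 738 and 698 FPKM at 3 months, 844, 672 and 771 FPKM at 19 months and 1426, 1086 and 1349 FPKM at 24 months. Its log2 change was 0.78 ± 0.15 at 24 against 3 months (limma adjusted p = 0.0125) and 0.75 ± 0.15 at 24 against 19 months (limma adjusted p = 0.0338). The latter call held in 8 of 18 alternatives and in 4 of the 9 fits that left out 1 library, with a limma adjusted p of up to 0.209 (all row types) and of 0.186 without replicate 2 of 19 months. mt-Co2, the subunit of complex IV that takes electrons from cytochrome c, stood at 5309, 6938 and 5578 FPKM at 3 months, 6768, 5710 and 6486 FPKM at 19 months and 11846, 9179 and 10803 FPKM at 24 months. For both genes all 24-month libraries lay above all others. Of all genes, 10.6% were higher without overlap at 24 against 3 months and 7.94% at 24 against 19 months. The log2 change of mt-Co2 at 24 against 3 months was 0.84 ± 0.20 (limma adjusted p = 0.0300), and its call held in 6 of 18 alternatives (adjusted p = 0.579 after quantile normalisation), that of mt-Nd6 at 24 against 3 months in 14 of 18.

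The summed FPKM of the 8 mitochondrial genes was 0.875, 1.17 and 1.14 times that of the 80 nuclear ones in replicates 1, 2 and 3 of 3 months, 1.03, 0.860 and 0.868 times in replicates 1, 2 and 3 of 19 months, and 1.62, 1.54 and 1.46 times in replicates 2, 3 and 4 of 24 months. All 24-month libraries lay above all others, and the 3- and 19-month libraries overlapped. The mean ratio was 1.06 ± 0.163 (SD, n = 3), 0.919 ± 0.0956 and 1.54 ± 0.0770 at 3, 19 and 24 months. This ratio is taken within a library and does not depend on scaling between libraries.

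**Figure D5:**
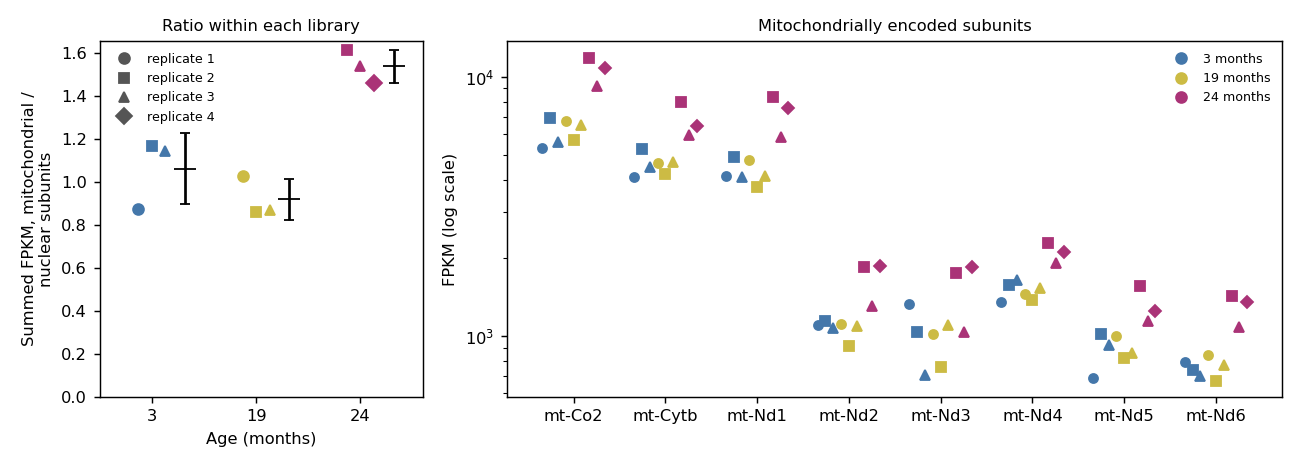
Left, summed FPKM of the 8 tested mitochondrially encoded subunits divided by that of the 80 tested nuclear subunits (vertical axis) in each library by age in months (horizontal axis), with mean and SD as a bar. Right, FPKM on a log axis of each of the 8 genes in each library, coloured by age. The 24-month libraries have ratios of 1.46 to 1.62, above the 0.860 to 1.17 of the other 6 libraries.

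Genes that work with the subunits were read from 4 lists, beside 1.56%, 3.84% and 0.93% of all genes called at 19 against 3, 24 against 3 and 24 against 19 months. Of 43 listed assembly factors of the respiratory complexes, 27 were found by symbol and tested. Of these 27, 0 were called at any comparison, with medians of 0.09, 0.07 and 0.002 at 19 against 3, 24 against 3 and 24 against 19 months. The list of electron carriers, ATP and phosphate carriers and the ATP synthase inhibitor held 10 genes. Of the 9 tested, 0 were called, with medians of 0.20, 0.04 and -0.12. Of 14 tricarboxylic acid cycle enzymes, 0 were called, with medians of 0.09, 0.04 and -0.09. Of 17 listed regulators of mitochondrial biogenesis and of mitochondrial DNA expression, 14 were tested and 0 were called, with medians of -0.11, -0.10 and -0.03.

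Markers of other cell types were read in the same libraries. The 5 sebaceous gland markers, all called lower at both older ages against 3 months, summed to 59.9 to 80.7 FPKM at 3 months, 20.2 to 28.8 FPKM at 19 months and 19.9 to 26.7 FPKM at 24 months. The 5 endothelial markers summed to 11.8 to 14.2, 9.58 to 10.7 and 5.60 to 7.23 FPKM, nearly all of it Egfl7 and Ramp2. Both were called lower at 24 against 3 months, while Pecam1 reached at most 0.446 FPKM, and Cdh5 and Emcn were listed at or near 0. The 5 melanocyte markers summed to 12.2 to 17.9, 6.54 to 8.45 and 4.19 to 9.20 FPKM, with Tyrp1 called lower at both older ages against 3 months. The 9 pericyte and smooth muscle markers summed to 1.43 to 2.55, 1.87 to 4.27 and 3.59 to 5.48 FPKM, with Acta2 called higher at 24 against 3 months, Des listed at 0 in all libraries and Rgs5 at or near 0. The 10 skeletal muscle markers summed to 9.13 to 11.99, 12.2 to 17.8 and 11.5 to 14.7 FPKM, nearly all of it Mylpf. Immune markers summed to 28.1 to 62.7, 23.0 to 53.4 and 28.4 to 53.9 FPKM, most of it Cd74. Of these, Fcer1g was called lower at 19 against 3 months and higher at 24 against 19 months. Fibroblast markers summed to 5.99 to 8.75, 10.003 to 11.97 and 9.42 to 16.7 FPKM, most of it Col1a2. The mean of Col1a1 went the other way, at 1.11, 0.713 and 0.945 FPKM. Adipocyte markers summed to 1.82 to 3.15, 1.24 to 2.24 and 1.52 to 2.21 FPKM, most of it Lpl. Cidec and Fabp4, at most 0.309 and 0.429 FPKM at 3 months, were listed at 0 in every 19- and 24-month library. The part of these cells in the falls of Uqcrfs1, Cox5a and Atp5d was not tested.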

How the data were processed

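RNA was measured in 9 libraries, 3 per age. The authors deposited 1 table of FPKM. The submitters' processing notes name TopHat, Cuffdiff and NCBIM37 (a genome build); for versions, settings, filters and strand use nothing is given in the sources used here. Low values showed no step worth 1 read, so the depth is unknown and no counting interval is given.

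The members, gene lists and tests were chosen with earlier results of these data known, among them that a fit of protein-coding genes calls more genes than a fit of all rows. Gene types, coding lengths and exon overlaps came from GENCODE M21 by Ensembl identifier (32916 of 37980 rows, all 86 members). Lengths are those of the longest coding sequence, used in place of RefSeq protein lengths. Rows tested were protein-coding with 1 FPKM or more in 3 libraries or more, leaving out 2 rows listed at 0 in every library of an age while another age had at least 5 FPKM throughout. In R 4.3.3, limma 3.58.1 with its trend option (prior variance depending on the mean) was fitted to log2(FPKM + 1), two-sided, with Benjamini-Hochberg adjustment over 11509 genes and a threshold of 0.05; it was tested on simulated data. Values by library are given for members called, with the largest rise or fall, most abundant in a complex, or in fixed paralog pairs. Errors of log2 changes are standard errors. Shares of paralogs were compared by exact permutation tests. Alternatives were other row filters, pseudocounts, scalings, priors, a replicate block and leaving out each library. Exon overlap with another gene was found for 30 members, 27 of them with one on the opposite strand.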

Additional observations from a re-analysis of the deposited data

How the results depend on the processing

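The falls of Uqcrfs1, Cox5a and Atp5d at 24 against 3 months kept their sign in 18 of 18 alternatives each, and their calls in 17, 14 and 13. Other row filters, the robust prior, a fit of only the ages compared and leaving out a 19-month library do not alter these log2 changes. In those alternatives the sign was fixed in advance, and only the call could change. Taking the comparisons in the order 19 against 3, 24 against 3, 24 against 19 months, then the F test, all row types gave 40, 29, 7 and 32 called genes, with 0 subunits at 24 against 3 months and 0 in the F test. Without a filter, 53, 118, 0 and 59 genes were called, with 1 subunit at 24 against 3 months and 1 in the F test. A stricter filter and a robust prior each called 1 subunit at 24 against 19 months. Median centring left 2 subunits in the F test and set the median of all genes to 0.0536 at 19 and 0.0531 at 24 against 3 months. Quantile normalisation called 59 genes at 24 against 19 months and brought the medians at 19 against 3 months to 0.0233 over all subunits, 0.0385 for complex I, 0.0931 for II and 0.0384 for V, and at 24 against 3 months to 0.0165 over all subunits, 0.0342 for complex I, 0.0287 for II and -0.0572 for V. The cause was not tested. Correlations of libraries between ages ran from -0.20 to 0.19 for the same replicate number and from -0.23 to 0.16 for different numbers. No pairing by number was seen, but these correlations are too few to exclude it. With a replicate block, 158 genes were called at 24 against 3 months, with 1 subunit at 19 against 3 months (Ndufa4l2), 1 at 24 against 3 months (Uqcrfs1) and 2 in the F test. Replicate number 4 occurs only at 24 months, so the block takes up that library and leaves it out of the age changes. Leaving out 1 library gave 69 to 230 genes at 19 against 3 months, 136 to 456 at 24 against 3 months, 20 to 216 at 24 against 19 months and 190 to 541 in the F test, with 0 to 1, 1 to 4, 0 to 2 and 1 to 4 subunits. Depth is unknown, so no limit of detection can be given for rows at or near 0.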
